A study of Mus musculus with 8 samples.

Results

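The genotype effect is the log2 level of a gene in myeloid cells of Hdc-null mice minus its level in those of wild-type mice. It was set side by side in bone marrow and in colon tumors, and the difference of effects (tumor effect minus marrow effect) was taken for each gene. A positive value means that the effect was more upward in tumor than in marrow, and a negative value that it was more downward. Of the 8174 genes tested, 6473 had a mean at or above log2 5 in all 4 groups and are described here, each by its named probe set with the highest mean. The nearest genes on either side of that floor were Homez, with a lowest group mean of 5.000, and Tmem192, with 4.998. The remaining 1701 tested genes lay under the floor in at least 1 group and were left out, which removes genes that were nearly silent in a group and so caps the size of the changes that can be seen.

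Histamine is made from the amino acid histidine by histidine decarboxylase, the product of Hdc. Immature myeloid cells carrying the surface markers CD11b and Gr-1 are a source of this enzyme, and such cells gather in tumors, where they are known for restraining T cells. All mice were C57BL/6J and carried HDC-EGFP, a transgene that marks Hdc-using cells with green fluorescent protein. The mice called null also carried HDC-KO, per the sample labels. The description of the whole series gives the tumor groups as WT and HDC-KO, with no mention of HDC-EGFP. Marrow cells were CD11b+Gr-1+ and described as HDC-expressing, and were taken at 3 to 4 months of age from 3 mice per genotype, with no tumor induction named. Tumor cells were CD11b+Gr-1+, with no EGFP gate named, and came from 10 to 12 colon tumors of 5 mice per genotype aged 7 months. Those mice had received the carcinogen azoxymethane once and then drank dextran sodium sulfate, an irritant of the gut wall, for 10 days, and their tumors were taken 22 to 24 weeks later. Tissue, age, treatment and the EGFP gate therefore change together between the sides of the contrast and cannot be told apart.

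Each group was 1 RNA pool on 2 technical arrays, 8 single-colour Affymetrix arrays in all. Pooling is stated for the tumor cells and is not clear from the labels for marrow. The adjusted p values below therefore measure how pools differ relative to technical noise, and the variation from mouse to mouse is not covered by them. Over the tested genes, technical arrays of a pool had correlations of 0.995 to 0.998, while the pool means correlated at 0.983 between the marrow genotypes and at 0.883 between the tumor genotypes. A difference was called at an adjusted p under 0.05 and a log2 size of at least 1, which is 2-fold. The summed linear level of the 31 tested epithelial markers was 376 to 443 on the marrow arrays, 12537 to 12642 on the wild-type tumor arrays and 69881 to 72758 on the arrays of the pool labelled HDC-null tumor. Epcam, an adhesion molecule of epithelium, had means of 2.59, 2.61, 9.64 and 11.72 in wild-type marrow, HDC-null marrow, wild-type tumor and labelled HDC-null tumor. Of the defining markers of the sort, Itgam, which encodes CD11b, lay between 11.25 and 12.38 in the 4 pools, and Ly6g, part of the Gr-1 antigen, was not analysed here. Fewer cells of a type and less RNA per cell cannot be told apart in pooled RNA.

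Hdc, the gene that names the genotype, had a genotype effect in marrow and almost none in tumor. Hdc read 13.14 and 13.21 on the wild-type marrow arrays, 9.79 and 9.87 on the HDC-null marrow arrays, 13.25 and 13.23 on the wild-type tumor arrays and 13.02 and 13.03 on the labelled HDC-null tumor arrays. Only the HDC-null marrow pool was low, and the pool labelled HDC-null tumor stood next to both wild-type pools. The marrow effect was a 10.2-fold fall and the tumor effect was a log2 difference of -0.21, so the difference of effects was 3.14 ± 0.08 (SE; limma with Benjamini-Hochberg adjustment, adjusted p = 2.5e-06). A further probe set for Hdc gave 4.40. Hdc thus goes against the label of the HDC-null tumor pool, and every direction drawn below from that pool rests on its label. The labels do not say which part of the gene HDC-KO removes, so the place of these probe sets relative to it is unknown. Hnmt, which breaks histamine down by methylation, had a marrow effect of 0.16 and a tumor effect of -0.84, and their difference was called lower but lay between -0.86 and -0.99 in 5 alternatives where it missed the size threshold.

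Among the 6473 genes, 548 were called higher and 689 lower for the difference of effects, together 19.1%. Over all 8174 genes tested the share called was 28.5%, with 16.8% higher and 11.7% lower. The unadjusted p was under 0.05 at 4262 of the 6473 genes. The differences had a median of -0.026 and an SD of 0.93 on the log2 scale, and the median standard error of a difference was 0.104. With each array centred on its median, the median difference moved to -0.137 and the calls to 462 higher and 811 lower. The called differences had median sizes of 1.42 (higher) and 1.51 (lower). A size of at least log2 3 was reached by 19 higher and 75 lower genes, and a size of at least log2 4 by 6 higher and 17 lower genes. Probe sets of the same gene that were at or above the floor in every pool mostly moved alike. Of 464 such other probe sets at 354 called genes, 449 had the same sign. In that direction 340 were also called, and 0 were called in the opposite one. Other probe sets under the floor in any pool were not counted here. Some of them agreed and some did not, such as those of Cd80 and Ctse and part of those of Ighm, described below.

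Most of the difference came from the tumor side. The marrow effect was called at 151 of the 6473 genes (62 higher, 89 lower) against 3.82% of all genes tested, and the tumor effect at 1052 (442 higher, 610 lower) against 26.0%. The tumor effect was the larger in size at 1090 of the 1237 genes with a called difference (88.1%), and the marrow effect at 147. Over all 6473 genes the tumor effect was the larger at 5030 (77.7%). Across the 6473 genes the effects had a Pearson correlation of -0.06 and a Spearman correlation of -0.042, as a description over genes that share the same 8 arrays. In 608 of the 1237 genes the labelled HDC-null tumor pool alone stood at least log2 1 from the other pools while those lay within log2 1 of each other, below them in 467 genes and above in 141. Wild-type marrow stood apart in this way at 25 genes, wild-type tumor at 21 and HDC-null marrow at 13. The remaining 570 genes had no single pool apart.

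**Figure D1:**
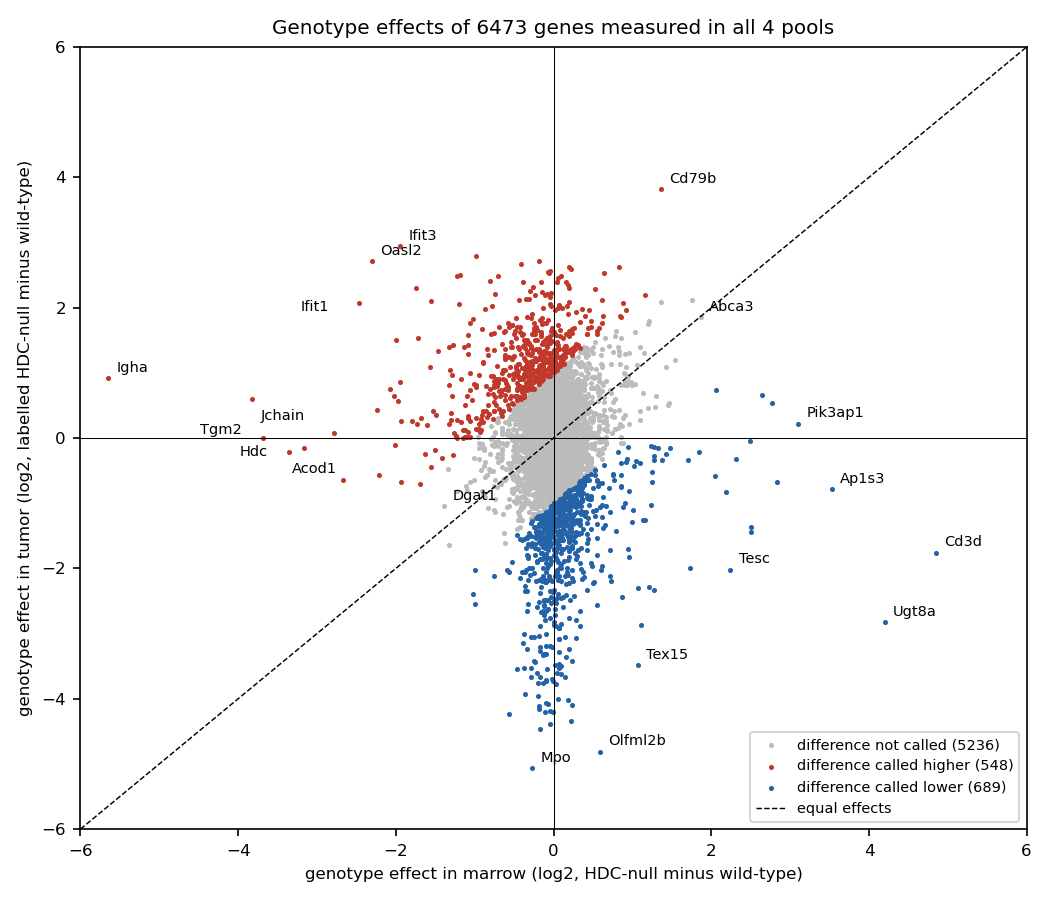
Genotype effect in marrow (x axis, log2) against genotype effect in tumor (y axis, log2) for the 6473 genes, each point 1 gene; red points are the 548 genes whose difference of effects was called higher, blue points the 689 called lower, and the dashed line marks equal effects. Points spread along the vertical axis more than the horizontal one (SD 0.83 against 0.37), with Igha, Hdc and Tgm2 far left and Cd3d and Ugt8a far right.

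**Figure D2:**
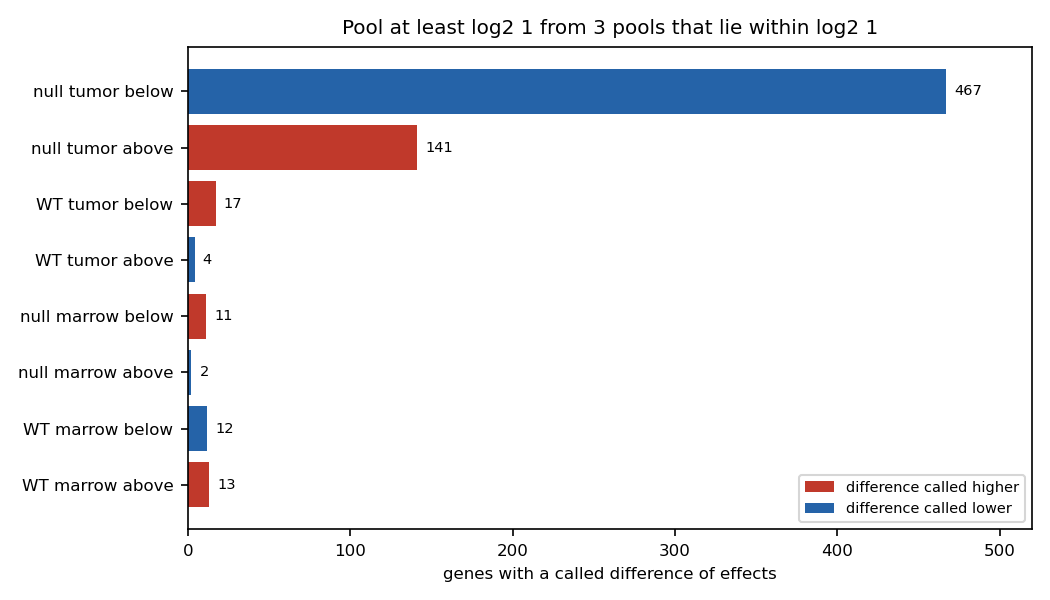
Number of genes with a called difference (x axis) in which 1 pool lay at least log2 1 from 3 pools that were within log2 1 of each other, by pool and side (y axis); red bars are genes called higher and blue bars genes called lower for the difference of effects. The bars for the pool labelled HDC-null tumor, 467 below and 141 above, are longer than those of every other pool.

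Most genes induced by interferon were lower by sign in HDC-null than in wild-type marrow and higher in the labelled HDC-null than in the wild-type tumor pool. Of the 22 genes with a called fall in marrow and a called rise in tumor, 6 were on the interferon-induced list. Interferons are antiviral cytokines, and the genes they induce include sensors of foreign RNA, enzymes that block viral replication, and the machinery that shows peptides to T cells. Oasl2, an oligoadenylate synthetase-like protein of antiviral defence, read 9.63 and 9.86 in wild-type marrow, 7.43 and 7.45 in HDC-null marrow, 5.56 and 5.77 in wild-type tumor and 8.50 and 8.25 in the labelled HDC-null tumor pool. It was high in wild-type marrow and low in wild-type tumor, with HDC-null marrow and the labelled HDC-null tumor pool between them. It fell 4.94-fold in marrow and rose 6.53-fold in tumor, and the difference of 5.01 ± 0.17 (SE) was called (limma, adjusted p = 5.8e-06). Ifit3, an antiviral protein with tetratricopeptide repeats, read 9.44 and 9.48, then 7.25 and 7.76, then 6.35 and 6.34, and then 9.24 and 9.34 in the same order of pools. Its wild-type marrow and labelled HDC-null tumor arrays were alike and high, and its wild-type tumor arrays were the lowest. The difference was 4.90 ± 0.22. Ifit1, which binds viral RNA that lacks a host cap, read 8.35 and 8.27, 5.85 and 5.81, 7.24 and 7.25, and 9.38 and 9.25 in that order, with HDC-null marrow the lowest pool and the labelled HDC-null tumor pool the highest. Its difference was 4.54 ± 0.09 after a 5.55-fold fall in marrow and a 4.20-fold rise in tumor.

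The promoters of Ifit3, Ifit1 and Igtp are shown because these genes moved in opposite directions in the 2 tissues and hold the interferon-stimulated response element, searched as GAAANNGAAA on both strands. Each window runs from 250 bases before to 50 bases after the RefSeq gene start (GRCm38.p6), is written 5′ to 3′ along the gene, and has the matches in capitals. Ifit3 lies at chr19:34583279-34583578 (plus strand), with matches starting 156 and 122 bases before the gene start. Ifit1 lies at chr19:34640639-34640938 (plus strand), with matches 104 and 85 bases before the start. Igtp lies at chr11:58199306-58199605 (plus strand), with 1 match 34 bases before the start.
Ifit3: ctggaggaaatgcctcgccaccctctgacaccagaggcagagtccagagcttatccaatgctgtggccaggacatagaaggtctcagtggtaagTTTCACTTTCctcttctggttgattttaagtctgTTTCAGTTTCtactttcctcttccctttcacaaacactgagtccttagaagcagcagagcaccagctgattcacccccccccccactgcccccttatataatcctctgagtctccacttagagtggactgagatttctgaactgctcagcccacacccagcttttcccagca
Ifit1: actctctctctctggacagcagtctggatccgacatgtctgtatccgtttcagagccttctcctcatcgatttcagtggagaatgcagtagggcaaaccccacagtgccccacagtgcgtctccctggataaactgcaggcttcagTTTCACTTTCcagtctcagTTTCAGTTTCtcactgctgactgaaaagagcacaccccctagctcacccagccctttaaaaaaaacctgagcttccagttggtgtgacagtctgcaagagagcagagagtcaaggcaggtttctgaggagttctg
Igtp: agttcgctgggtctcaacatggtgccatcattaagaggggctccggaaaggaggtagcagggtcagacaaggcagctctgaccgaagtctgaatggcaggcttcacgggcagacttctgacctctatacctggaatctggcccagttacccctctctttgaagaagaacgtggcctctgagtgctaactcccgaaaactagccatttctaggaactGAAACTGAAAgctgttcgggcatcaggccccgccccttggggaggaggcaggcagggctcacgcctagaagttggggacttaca
Both matches of Ifit3 and of Ifit1 read on the minus strand, and they are the same pair of words in each gene.

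A promoter window was found for 5356 of the 6473 genes. The GAAANNGAAA motif stood in 3.49% of the windows of all 27025 genes in the table and in 3.19% of the 5356. It was in 31 of 443 windows of genes called higher (7.00%) and in 12 of 571 of genes called lower (2.10%). In the interferon list it was in 10 of 28 windows, and in the guanylate-binding and immunity-related GTPases in 6 of 7. The windows of Oasl2, Ifi47 and Tap1 held no match. These shares describe letters in a window and say nothing of binding.

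Of 37 interferon-induced genes measured in all pools, 22 were called higher for the difference, 0 lower and 15 not called. Their median difference was 1.33, beside -0.026 for all 6473 genes, with medians of -0.24 for the marrow effect and 1.12 for the tumor effect. By sign alone, 29 of the 37 were lower in HDC-null marrow and higher in the labelled HDC-null tumor pool. The same signs were found at 33 of 40 ribosomal protein genes and 34 of 69 respiratory chain genes. This pattern of signs is therefore not particular to the interferon list, and its share over all 6473 genes was not counted. The tumor effect was called higher at 21 of the 37 interferon-induced genes and the marrow effect lower at 6. Those 6 were Ifit1, Oasl2, Zbp1, Ifit3, Rsad2 and Usp18. Zbp1, a sensor of Z-form nucleic acid, had a difference of 3.50 ± 0.18, and Usp18, which removes the interferon-induced modifier ISG15 from proteins, one of 3.26 ± 0.14. Members with little or no marrow effect included Epsti1 at -0.07 in marrow and 2.55 in tumor, and Irf7, a transcription factor of the interferon response, at -0.29 and 1.84. At the other end were Samd9l, with a difference of -0.78, and Ifitm3, with 0.21, neither of them called. Ifit1bl2, which is outside the list, ran against Ifit1 and Ifit3. Its effects were 0.90 in marrow and -0.99 in tumor, neither called, and its difference of -1.90 ± 0.08 was called lower.

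All 7 guanylate-binding proteins and immunity-related GTPases in the list, which attack the membranes around intracellular microbes, were called higher, with a median difference of 2.27. Each was lower by sign in HDC-null marrow and higher in the labelled HDC-null tumor pool. Ifi47 read 8.87 and 8.78 in wild-type marrow, 7.07 and 7.46 in HDC-null marrow, 8.67 and 8.86 in wild-type tumor and 10.89 and 10.86 in the labelled HDC-null tumor pool. The wild-type pools were level with each other, HDC-null marrow lay below them and the labelled HDC-null tumor pool above. Its difference was 3.67 ± 0.19. Igtp had means of 9.10, 8.07, 8.85 and 10.67 in that order and a difference of 2.85 ± 0.10. Gbp7 was the smallest of the group at 1.03, and the count was 6 of 7 with arrays centred on their medians. In the small TRIM family list, whose members are ubiquitin ligases with antiviral roles, Trim30a at 1.36 and Trim21 at 1.34 were called higher among 3. Trim21 was 0.69 as the mean of its probe sets.

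Antigen presentation by MHC class I followed the same direction. All 13 measured members were positive for the difference, 7 were called higher and 0 lower, and the median was 1.01. Nlrc5, the transcriptional activator of class I genes, read 7.22 and 7.32 in wild-type marrow, 5.65 and 5.41 in HDC-null marrow, 6.03 and 6.20 in wild-type tumor and 8.37 and 8.46 in the labelled HDC-null tumor pool. Its difference of 4.04 ± 0.15 came from a 3.35-fold fall in marrow and a 4.92-fold rise in tumor (limma, adjusted p = 6.5e-06). Tap1, which with Tap2 pumps peptides into the endoplasmic reticulum, had a difference of 2.35 ± 0.12, with a called fall in marrow and a called rise in tumor. Pdia3, a chaperone of the peptide-loading complex, had means of 10.09, 8.89, 7.47 and 9.98 in wild-type marrow, HDC-null marrow, wild-type tumor and labelled HDC-null tumor. Its difference was 3.70 ± 0.17, with the wild-type tumor pool the lowest. The immunoproteasome subunit Psmb10 had a difference of 2.18 ± 0.13 that came from the tumor side. The class I chain H2-K1 at 0.88, H2-D1 at 0.72 and the light chain B2m at 0.45 were not called. As the mean of each gene's probe sets the list had 5 called higher and 1 lower.

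**Figure D3:**
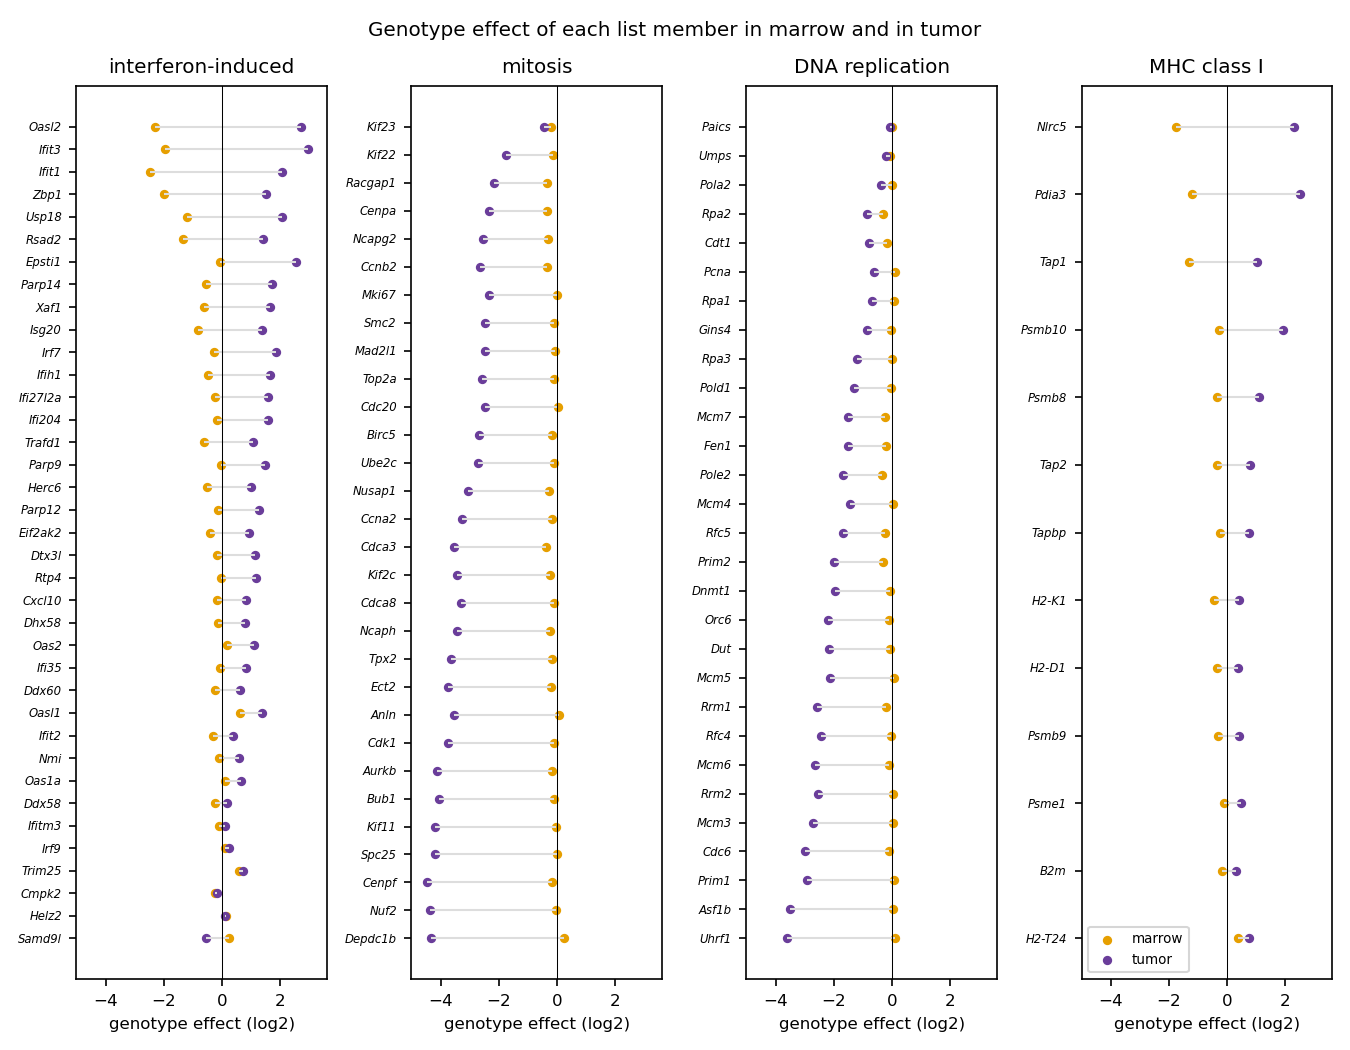
Genotype effect in marrow (orange) and in tumor (purple) on the log2 scale (x axis) for each measured gene (y axis) of the interferon-induced, mitosis, DNA replication and MHC class I lists, joined by a line whose length is the difference of effects. In the interferon and MHC class I panels most genes lie left of 0 in marrow and right of 0 in tumor, while in the mitosis and DNA replication panels marrow values stay near 0 and tumor values lie below it.

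MHC class II, which presents peptides on macrophages, dendritic cells and B cells, had 4 measured members, of which 3 were called higher (median 1.55). Cd74, the invariant chain, had means of 5.77, 5.95, 10.40 and 12.43 in the order wild-type marrow, HDC-null marrow, wild-type tumor and labelled HDC-null tumor, so the step of 2.03 was on the tumor side. H2-Aa had a difference of 2.36 ± 0.08 and H2-DMa of 1.25 ± 0.21. Markers of B cells were also higher in the labelled HDC-null than in the wild-type tumor pool, Ms4a1 at 9.65 against 6.59 and Cd79b at 9.71 against 5.88, and the part of cell makeup in the class II values was not tested. The dendritic and costimulatory list had 1 measured member, Cd80, a ligand of CD28, which fell in marrow by 1.53 and had a difference of 1.94 ± 0.20. The other tested probe set of Cd80, under the floor in both marrow pools, had effects of -0.50 in marrow and -0.17 in tumor. Its difference was 0.34, so the size for Cd80 depends on the probe set.

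Monocyte and macrophage genes were higher by a median difference of 0.72, with 7 of 16 called higher and 0 lower. Adgre1, an adhesion receptor that marks macrophages, read 8.55 and 8.42 in wild-type marrow, 6.60 and 6.93 in HDC-null marrow, 9.61 and 9.49 in wild-type tumor and 11.12 and 11.05 in the labelled HDC-null tumor pool. The 4 pools did not overlap, and the order of genotypes was reversed between the tissues. The difference was 3.26 ± 0.16 (limma, adjusted p = 1.8e-05). Vcam1, an adhesion molecule for leukocytes, had a difference of 2.95 ± 0.07, of which 2.21 was the tumor effect. Ccl9, a chemokine, had effects of -0.61 in marrow and 0.89 in tumor. Cd68, a lysosomal protein of macrophages, was at 1.23 ± 0.08, and F10, coagulation factor X, at 1.15 ± 0.11, which was 0.99 as the mean of its probe sets. C1qb, F13a1, Klf4, Lgals3 and Apoe had differences between -0.44 and -0.04 and were not called. The summed linear level of the tested macrophage markers was 31372 to 31523 on wild-type marrow arrays, 31213 to 31482 on HDC-null marrow arrays, 62752 to 64376 on wild-type tumor arrays and 107105 to 109883 on labelled HDC-null tumor arrays. The part of a shift in cell types in these differences was not tested.

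Cytokines and chemokines had 6 called higher and 2 lower of 13. Csf1, the growth factor of macrophages, read 6.70 and 6.72 in wild-type marrow, 5.77 and 5.49 in HDC-null marrow, 7.49 and 7.54 in wild-type tumor and 8.86 and 8.75 in the labelled HDC-null tumor pool. It fell in marrow and rose in tumor, with a difference of 2.37 ± 0.14. Il18, an inflammasome product, had a difference of 2.38 ± 0.13 from the tumor side alone, with a marrow effect of 0.22. Il15, which sustains NK and memory T cells, was at 1.89 ± 0.09. Il1b fell in marrow by 1.08 and had a tumor effect of 0.10, a difference of 1.18. Tnfsf13b, the B cell survival factor BAFF, was the lowest at -2.01 ± 0.07, and Vegfa, the angiogenic factor, had a marrow effect of 0.01 and a tumor effect of -0.99, a difference called lower that lay between -0.76 and -0.97 in 4 alternatives where it missed the size threshold.

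Genes of cell division fell in the labelled HDC-null tumor pool and were nearly level between the marrow pools. Mitosis needs kinetochore proteins, spindle motors and kinases whose genes are switched on together late in the cell cycle. Nuf2, a kinetochore protein that holds microtubules, read 10.73 and 10.75 in wild-type marrow, 10.74 and 10.63 in HDC-null marrow, 10.42 and 10.42 in wild-type tumor and 5.96 and 6.10 in the labelled HDC-null tumor pool. The first 3 pools were nearly level and the last stood alone near the floor. Its difference was -4.33 ± 0.10, all of it from a 20.9-fold fall in tumor (limma, adjusted p = 2.3e-06). Kif11, a motor that pushes spindle poles apart, had a difference of -4.15 ± 0.11, Spc25, a partner of Nuf2 at the kinetochore, -4.19 ± 0.13, and Cenpf, a kinetochore protein, -4.30 ± 0.35. The 2 labelled HDC-null tumor arrays read 4.86 and 5.72 for Cenpf, so its size is less sure than that of Nuf2.

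The promoters of Cenpf and Kif11 are shown because these mitotic genes fell together and hold the cell cycle homology region, searched as TTTGAA on both strands and printed in capitals. The windows follow the same rule as above. Cenpf lies at chr1:189688037-189688336 (minus strand), with its match starting 2 bases after the gene start. Kif11 lies at chr19:37376132-37376431 (plus strand), with its match 19 bases before the start, read on the opposite strand.
Cenpf: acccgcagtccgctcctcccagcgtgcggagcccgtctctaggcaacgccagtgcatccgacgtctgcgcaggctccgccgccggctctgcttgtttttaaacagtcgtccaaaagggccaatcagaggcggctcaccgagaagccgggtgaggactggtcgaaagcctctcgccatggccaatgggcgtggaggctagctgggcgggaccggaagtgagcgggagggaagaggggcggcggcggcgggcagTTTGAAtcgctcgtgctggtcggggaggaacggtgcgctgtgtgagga
Kif11: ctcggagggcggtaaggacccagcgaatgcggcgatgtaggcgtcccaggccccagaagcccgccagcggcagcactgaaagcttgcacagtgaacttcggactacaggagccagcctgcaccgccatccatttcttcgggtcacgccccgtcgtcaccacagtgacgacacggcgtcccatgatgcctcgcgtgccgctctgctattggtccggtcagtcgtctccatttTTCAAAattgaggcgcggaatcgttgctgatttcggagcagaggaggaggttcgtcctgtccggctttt
In the mitosis list TTTGAA was found in 20 of 26 windows (76.9%), beside 18.1% of all 27025 genes and 11.7% of the 5356. The windows of Nuf2 and Bub1 held no TTTGAA match, and no window was found for Aurkb and Depdc1b. CCAAT, a site of the factor NF-Y, was in 18 of the 26 mitosis windows (69.2%) beside 37.9% of all genes. DNA replication genes held TTTGAA in 4 of 26 windows (15.4%). Genes called lower held it in 92 of 571 windows (16.1%). Some matches share bases: in the window of Spc25 the TTTGAA match starting 24 bases after the gene start overlaps a GAAANNGAAA match starting 27 bases after it.

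Of 47 tested mitosis genes, 30 were at or above the floor in all pools, and 29 of these were called lower (median difference -3.13; -0.16 in marrow and -3.29 in tumor). The remaining member, Kif23, had -0.25. Over all 47 tested, 46 were called lower, beside 11.7% of all genes tested. In the order wild-type marrow, HDC-null marrow, wild-type tumor and labelled HDC-null tumor, 47, 47, 47 and 30 had a mean at or above log2 5. Those outside the 30 thus entered the test through the pools where they were high, and their calls are no separate support. Aurkb, a kinase of chromosome segregation, was at -3.93, Cdk1, the kinase that starts mitosis, at -3.64, Top2a, which untangles chromosomes, at -2.45, and Mki67, the proliferation marker Ki-67, at -2.34. None of the 30 had a called marrow effect. As the mean of probe sets the count was 18, over fewer members. The summed linear level of the list was 65013 to 65707 on wild-type marrow arrays, 59918 to 59942 on HDC-null marrow arrays, 51004 to 51297 on wild-type tumor arrays and 7348 to 7480 on the labelled HDC-null tumor arrays, and epithelial and macrophage marker sums moved the other way on those last arrays. The part of cell makeup in this fall was not tested.

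DNA replication genes moved in the same direction by less. Of 29 members, 21 were called lower and 0 higher, with a median difference of -1.46 and a median marrow effect of -0.04. Uhrf1, which guides maintenance methylation of DNA, was the lowest at -3.72 ± 0.28. Asf1b, a histone chaperone, was at -3.50 ± 0.16, Prim1, the primase that starts new strands, at -3.00 ± 0.25, and Cdc6, which loads the replicative helicase, at -2.89 ± 0.17. The helicase subunits Mcm3 at -2.73, Mcm6 at -2.55 and Mcm5 at -2.19 were called, as were both subunits of ribonucleotide reductase, Rrm2 at -2.57 and Rrm1 at -2.38. Pcna, Rpa1, Rpa2, Cdt1 and Gins4 were negative and not called. Ccnd2, a D-type cyclin that drives entry into the cycle and is outside these lists, ran the other way: its means were 6.40, 5.18, 7.00 and 9.48 and its difference was 3.71 ± 0.33. The HDC-null marrow arrays of Ccnd2 read 5.57 and 4.78, and its other probe sets at or above the floor gave 1.54 to 2.83.

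Part of the granule genes of immature neutrophils also fell in the labelled HDC-null tumor pool. Neutrophils make primary granules as promyelocytes and secondary granules later, so these genes mark stages of maturation. Mpo, myeloperoxidase of primary granules, read 13.38 and 13.41 in wild-type marrow, 13.15 and 13.09 in HDC-null marrow, 10.52 and 10.49 in wild-type tumor and 5.51 and 5.36 in the labelled HDC-null tumor pool. It was near the top of the scale in both marrow pools, lower in wild-type tumor and near the floor in the last. The fall was 33.7-fold in tumor against 1.21-fold in marrow, with a difference of -4.80 ± 0.09. Of 10 genes on the primary granule list, which also held Ms4a3 and Gstm1, 5 were called lower and 1 higher (median -1.29). Ms4a3, a marker of granulocyte precursors, was at -3.10 ± 0.13 and Prtn3, proteinase 3, at -1.91 ± 0.10. Gstm1, a glutathione transferase, was called higher at 2.82 ± 0.20 after a marrow fall of 2.07.

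The secondary granule list, which also held genes such as Itgb2l, had 8 of 23 called lower and 0 higher, with a median of -0.75. Fcnb, a ficolin that binds microbial sugars, had means of 11.60, 11.54, 11.24 and 7.17 and a difference of -4.01 ± 0.20. Itgb2l, a neutrophil integrin chain, was at -3.67 ± 0.09, Orm1, an acute-phase glycoprotein, at -3.22 ± 0.14, and Abca13 at -2.85 ± 0.16. Ltf at -0.75, Lcn2 at -0.49, Camp at -0.38 and Ngp at -0.34 were not called, nor were the calgranulins S100a8 at -0.06 and S100a9 at -0.02. Mature neutrophil genes had a median of 0.11, with Il1r2, a decoy receptor of interleukin 1, at 1.06 and Cd14, a receptor for bacterial lipopolysaccharide, at 1.13 called higher among 20. With arrays centred on their medians that list had 1 higher and 2 lower, and Il1r2 was then 0.94. Cd14 was 0.88 without the second HDC-null marrow array.

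Transcription factors of the myeloid lineage split in both directions, with 6 of 22 called higher and 2 lower, or 5 higher and 4 lower with arrays centred. The 2 lower were Gfi1, a repressor needed to make neutrophils, at -3.63 ± 0.09, and Myb, a factor of immature precursors, at -3.15 ± 0.18. Gfi1 had means of 10.84, 10.71, 9.92 and 6.17 and Myb of 11.56, 11.64, 10.50 and 7.42. In both the labelled HDC-null tumor pool was the lowest, and at Myb wild-type tumor was already under wild-type marrow by 1.07. Irf5, a factor of inflammatory macrophages, was at 2.59 ± 0.25 from the tumor side, Zeb2 at 1.46 ± 0.07, Maf, a macrophage factor, at 1.19 and Irf8, a factor of monocyte fate, at 1.04. Cebpb fell in marrow by 1.12 and had a difference of 1.24. Junb, a partner of Fos, was called at 1.12 ± 0.35 (limma, adjusted p = 0.031), and leaving out each of 6 single arrays gave adjusted p values of 0.058 to 0.082.

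**Figure D4:**
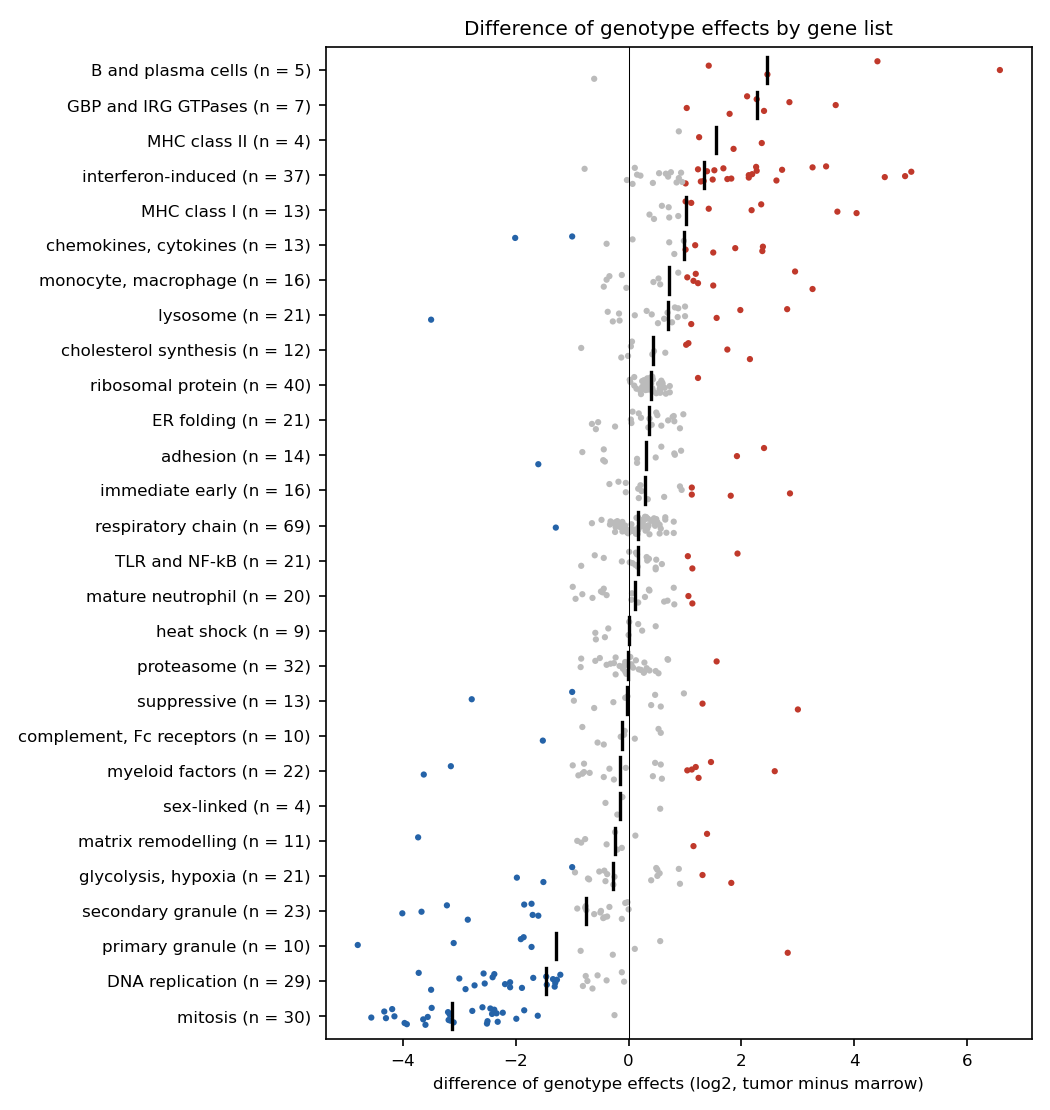
Difference of genotype effects (x axis, log2, tumor minus marrow) for each measured gene of the lists with at least 4 members (y axis, number of members in brackets), 1 point per gene, red for called higher, blue for called lower and grey for not called, with a black bar at the list median. Medians run from 2.46 for B and plasma cell genes and 2.27 for the GTPases down to -3.13 for mitosis, and ribosomal, respiratory and proteasome genes cluster near 0.

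A smaller class had the marrow effect called and the tumor effect not called. It held 81 genes with a called difference, 56 that fell in HDC-null marrow and 25 that rose there. Igha, the constant region of immunoglobulin A, read 10.98 and 11.09 in wild-type marrow, 5.68 and 5.08 in HDC-null marrow, 13.09 and 13.14 in wild-type tumor and 14.06 and 14.02 in the labelled HDC-null tumor pool. It was near the floor in HDC-null marrow and bright in both tumor pools. A 50.3-fold fall in marrow and a tumor effect of 0.92 gave a difference of 6.58 ± 0.26 (limma, adjusted p = 7.8e-06), and the other probe sets of Igha gave 4.87 to 6.61. Jchain, which joins immunoglobulins into polymers, had means of 8.90, 5.09, 12.47 and 13.06 and a difference of 4.41 ± 0.11. Of 5 measured B and plasma cell genes 4 were called higher. Ighm, the immunoglobulin M heavy chain, was at 1.42 and was 0.83 as the mean of its probe sets. The Ighm probe set used had a tumor effect of 0.34, but its probe sets disagreed. Some had tumor effects of -2.27, -2.25, -2.17 and -2.03, with HDC-null marrow under the floor and differences between -0.27 and 0.80. The rest had tumor effects of 0.16, 0.86 and 1.22. Ms4a1, which encodes CD20 of B cells, had means of 4.67, 5.55, 6.59 and 9.65 in the order wild-type marrow, HDC-null marrow, wild-type tumor and labelled HDC-null tumor, and Mzb1, a chaperone of plasma cells, 3.95, 4.40, 6.34 and 7.93. Both were under or near the floor in marrow and highest in the labelled HDC-null tumor pool. The summed linear level of the 13 tested B and plasma cell markers was 25427 to 25464, 22305 to 23102, 48226 to 48532 and 58823 to 58848 on the arrays of those pools. The part of B and plasma cells in these differences was not tested.

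Tgm2, a transglutaminase that crosslinks proteins, read 10.09 and 10.17 in wild-type marrow, 6.49 and 6.38 in HDC-null marrow, 12.90 and 12.94 in wild-type tumor and 12.95 and 12.90 in the labelled HDC-null tumor pool. The tumor pools were level and the marrow pools differed 12.9-fold, for a difference of 3.69 ± 0.09. Acod1, the enzyme that makes itaconate in activated macrophages, had the same shape with means of 10.10, 6.94, 13.62 and 13.46 and a difference of 3.00 ± 0.16. Fos, an immediate early transcription factor, had means of 11.94, 9.15, 13.91 and 13.98 and a difference of 2.86 ± 0.10, and Dusp1, a phosphatase of the same rapid response, a difference of 1.81 ± 0.08. In these 4 genes HDC-null marrow was the lowest pool and wild-type marrow lay between it and the tumors. Immediate early genes as a list had 4 of 16 called higher, with a median of 0.29, so the shape was not general: Zfp36, Fosl2, Klf6 and Ier2 lay between -0.18 and 0.23. Dusp6 at 1.12 ± 0.08 was called from the tumor side.

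**Figure D5:**
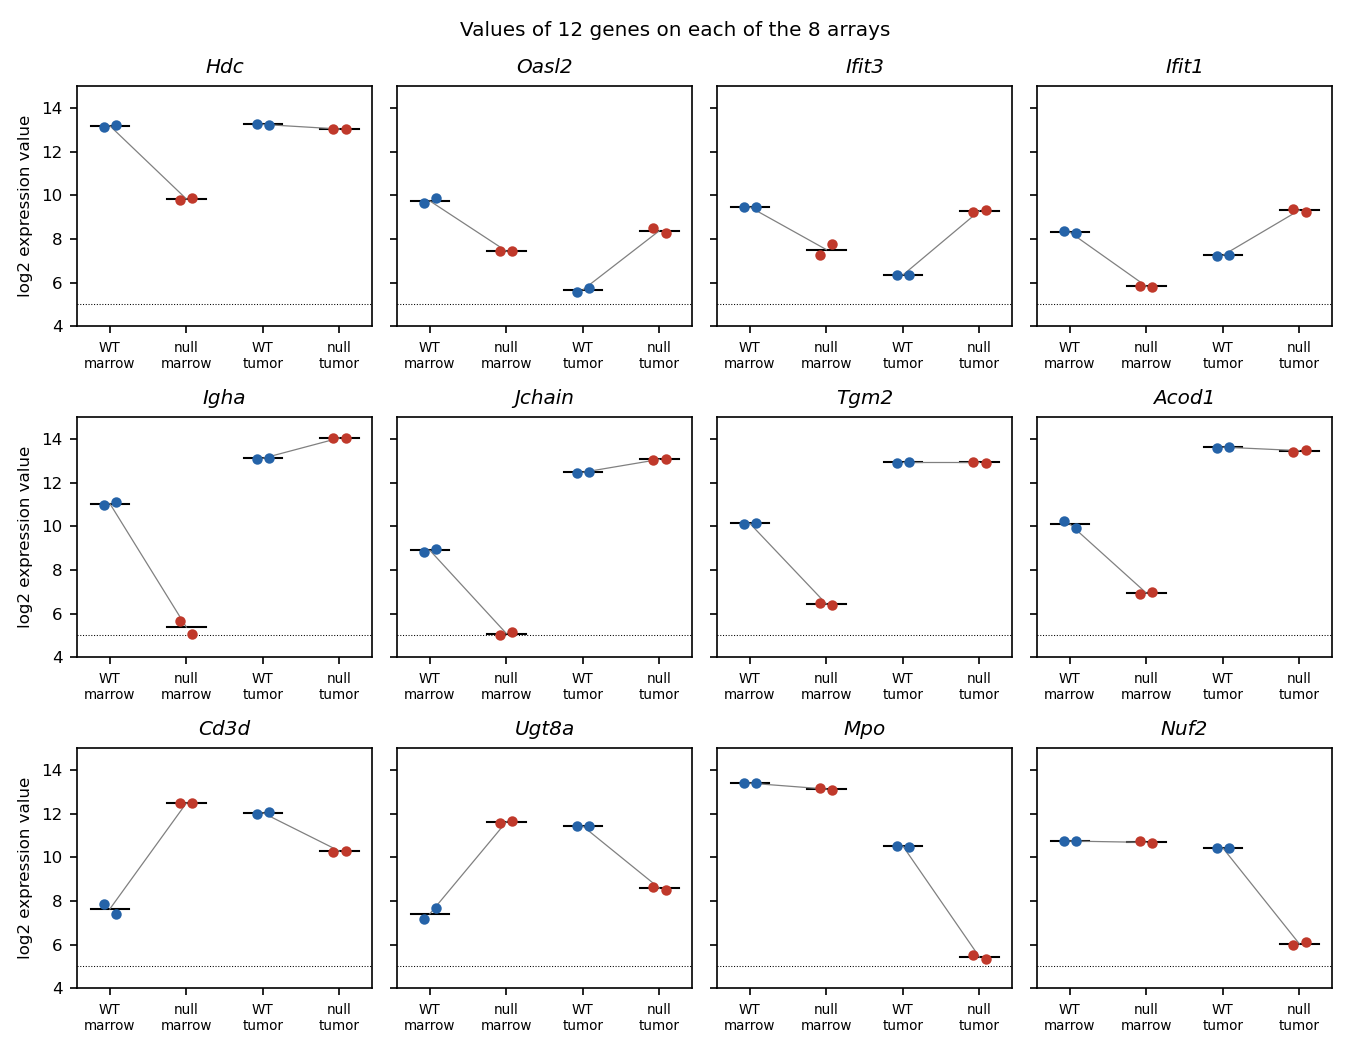
log2 expression value (y axis) of 12 genes on each of the 8 arrays (points), by pool (x axis), with a black bar at each pool mean, a grey line joining the genotypes of a tissue and a dotted line at log2 5. Oasl2, Ifit3 and Ifit1 fall in marrow and rise in tumor, Igha, Tgm2 and Acod1 fall in marrow alone, Cd3d and Ugt8a rise in marrow and fall in tumor, Nuf2 falls in the labelled HDC-null tumor pool alone, and Mpo is lower in wild-type tumor than in marrow and lowest in the labelled HDC-null tumor pool.

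Lipid handling showed the marrow-sided shape in a few genes. Npc1, which moves cholesterol out of lysosomes, fell in marrow by 1.95 and had a difference of 2.81 ± 0.22. Cholesterol synthesis had 4 of 12 called higher and 0 lower, and all 12 had a negative marrow effect (median -0.73). Cyp51, which demethylates lanosterol, was at 2.15 ± 0.08 and Insig1, which retains the sterol sensor in the endoplasmic reticulum, at 1.75 ± 0.17. Pmvk at 1.02 and Sc5d at 1.06 were called with smaller margins and were 0.90 and 0.95 with arrays centred. Msmo1 at -0.84, Fdft1 at -0.01 and Hmgcs1 at 0.65 were not called. Lysosomal genes had 4 of 21 called higher and 1 lower (median 0.69), and 6 higher under quantile normalization or 8 as the mean of probe sets. They were led by Npc1 and by Lipa, the acid lipase that frees cholesterol, at 1.98 ± 0.10 from the tumor side. Ctsl, a cathepsin, was at 1.56 and was 0.75 as the mean of its probe sets.

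Ctse, a cathepsin of the endosome, was the lysosomal gene called lower, and it belongs to the 25 genes that rose in HDC-null marrow with no called tumor effect. It read 10.30 and 10.17 in wild-type marrow, 13.03 and 13.10 in HDC-null marrow, 12.80 and 12.86 in wild-type tumor and 12.12 and 12.19 in the labelled HDC-null tumor pool. Wild-type marrow was the low pool, and the difference was -3.50 ± 0.09. The other tested probe set of Ctse disagreed, with means of 6.47, 5.68, 5.32 and 4.05 in the same order of pools. Its marrow effect was -0.79 and its difference -0.47, and it lay under the floor in the labelled HDC-null tumor pool. Pik3ap1, an adaptor that links receptors to phosphoinositide 3-kinase, had means of 7.15, 10.25, 11.31 and 11.53 and a difference of -2.88 ± 0.07. Ap1s3, a subunit of a clathrin adaptor, had means of 6.66, 10.19, 10.29 and 9.51 and a difference of -4.31 ± 0.31. By the probe sets used, wild-type marrow stood well under the other pools in all 3 genes. Ovgp1 at -3.02 ± 0.10 and Zfp760 at -2.64 ± 0.18 had the same sign in each tissue as Ctse.

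Called effects of opposite direction in both tissues were found at 37 genes, 22 that fell in marrow and rose in tumor and 15 that rose in marrow and fell in tumor. The 22 hold Oasl2, Ifit3, Ifit1, Nlrc5, Ccnd2, Pdia3, Ifi47, Zbp1, Usp18, Adgre1, Igtp, Rsad2, Csf1 and Tap1. Ugt8a, a galactosyltransferase of myelin lipids, read 7.15 and 7.67 in wild-type marrow, 11.58 and 11.65 in HDC-null marrow, 11.43 and 11.41 in wild-type tumor and 8.65 and 8.51 in the labelled HDC-null tumor pool. HDC-null marrow and wild-type tumor were alike and high. The difference was -7.04 ± 0.23, from an 18.4-fold rise and a 7.14-fold fall (limma, adjusted p = 4.5e-06). Cd3d, a chain of the T cell receptor complex, read 7.87 and 7.39, then 12.49 and 12.46, then 11.99 and 12.07, and then 10.26 and 10.29 in the same order, and its difference was -6.60 ± 0.20. Of its partners in that complex, Cd3e was under the floor in every pool, and Cd3g had means of 2.46, 2.91, 3.06 and 5.56, highest in the labelled HDC-null tumor pool. Cd2, another T cell marker, had 2.68, 2.88, 3.62 and 6.75, and the part of T cells in these differences was not tested.

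Plau, the urokinase that activates plasminogen, read 7.82 and 7.95 in wild-type marrow, 9.61 and 9.63 in HDC-null marrow, 10.20 and 10.22 in wild-type tumor and 8.19 and 8.23 in the labelled HDC-null tumor pool. The genotype order was reversed with no overlap in either tissue, and the difference was -3.73 ± 0.09. Tesc, the calcium-binding protein tescalcin, had means of 6.07, 8.31, 7.26 and 5.24 and a difference of -4.25 ± 0.09. Tex15, known from meiosis in the testis, had means of 9.64, 10.70, 10.83 and 7.36 and a difference of -4.54 ± 0.07. Dock9, an activator of the GTPase Cdc42, had a difference of -3.98 ± 0.30, and its wild-type marrow arrays were spread, at 6.32 and 5.62. Matrix remodelling genes beside Plau gave Thbs1, thrombospondin 1, which fell in marrow by 1.63 and had a difference of 1.39 ± 0.09, and the list had 2 of 11 called higher and 1 lower.

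A further 852 called differences had a called tumor effect and no called marrow effect, 538 of them lower and 314 higher. Beside the mitotic and granule genes, Olfml2b, an olfactomedin-like matrix protein, read 10.18 and 10.24 in wild-type marrow, 10.77 and 10.83 in HDC-null marrow, 10.52 and 10.62 in wild-type tumor and 5.98 and 5.54 in the labelled HDC-null tumor pool, with a difference of -5.40 ± 0.20. The last pool was 28.1-fold under wild-type tumor. Tmem216, a ciliary protein, was at -4.32 ± 0.09 and Ncam1, a neural cell adhesion molecule, at -4.09 ± 0.13. Among the higher genes of this class were AW112010 at 3.79 ± 0.21, Ncoa7, a nuclear receptor coactivator, at 3.21 ± 0.28, and Ms4a4b, a membrane protein of lymphocytes, at 3.20 ± 0.23. AW112010 had means of 6.30, 5.31, 8.88 and 11.67 and missed the marrow call at -0.99.

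In 263 genes the difference was called although neither effect was, 154 higher and 109 lower. In each the effects had opposite signs. Where both effects are under log2 1 in size, this follows from the size threshold of the difference and is not a result. Cd93, a receptor on precursors and endothelium, had effects of -0.99 in marrow and 0.78 in tumor and a difference of 1.77 ± 0.08. Chpt1, which makes phosphatidylcholine, was at 1.90 ± 0.34 and Psip1, a chromatin-bound coactivator, at -1.79 ± 0.08. The other Psip1 probe set at the floor gave -0.92, and Cd93 was 0.98 as the mean of its probe sets.

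Effects called in the same direction in both tissues were found at 17 genes, 13 higher and 4 lower. These counts rest on the label of the HDC-null tumor pool: with the direction of the tumor effect turned, the 17 would count as opposite and the 37 above as the same. Abca3, a lipid transporter, read 6.30 and 6.35 in wild-type marrow, 8.25 and 8.15 in HDC-null marrow, 8.25 and 8.11 in wild-type tumor and 10.02 and 10.04 in the labelled HDC-null tumor pool. HDC-null marrow and the labelled HDC-null tumor pool were higher than the wild-type pool of their tissue by a like amount, 3.66-fold and 3.61-fold. The difference was -0.02 with a 95% interval of -0.26 to 0.22. The other tested probe set of Abca3, under the floor in wild-type marrow, had effects of 1.32 in marrow and 0.52 in tumor and a difference of -0.80. Sdhaf4, an assembly factor of succinate dehydrogenase, had a difference of 0.05 (-0.41 to 0.51), Ccdc88a 0.15 (-0.17 to 0.48) and Cyp20a1 0.29 (-0.58 to 1.16). Dgat1, which makes triglycerides, fell in both tissues and had a difference of 0.34 (0.17 to 0.51). The effects of 4 of the 17 still differed: Cd79b, a chain of the B cell receptor, at 2.46, Tlr7, a receptor for single-stranded RNA, at 1.05, Hibch at -1.39 and Scrg1 at -1.03. Tlr7 lay between 0.93 and 0.97 in 5 alternatives where it missed the size threshold, and Scrg1 at -0.99 and -0.92 in 2.

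Genes of the common cell machinery moved little. All 40 ribosomal protein genes were positive (median 0.40, and 0.28 with arrays centred), but their differences ran from 0.02 to 0.73 apart from Rps6 at 1.23, the only call, which was 0.95 under quantile normalization. The 69 respiratory chain genes had a median of 0.17 with 1 called lower, Ndufa12 at -1.29. Proteasome genes had a median of -0.01, which was 0.01 under quantile normalization, with 1 of 32 called higher, Psmd13 at 1.56. Of 21 genes of folding in the endoplasmic reticulum 0 were called (median 0.37), and of 9 heat shock genes 0 were called. The 4 sex-linked genes at the floor gave 0 calls. Glycolysis and hypoxia had 2 called higher and 3 lower of 21, with Egln3, an oxygen sensor, at 1.82 and Hk3, the myeloid hexokinase, at -1.98 the farthest apart. P4ha1 was called higher at 1.31 and was 0.80 as the mean of its probe sets, and Ero1a was called lower at -1.51.

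Against the 19.1% of all 6473 genes that were called, the counts in the next lists are small, and they are given as values only. Of 13 suppressive genes 2 were called higher and 2 lower: Acod1 at 3.00 and Il4ra, the interleukin 4 receptor, at 1.31, against Nt5e, which makes adenosine from AMP, at -2.78 and Vegfa. Toll-like receptor and NF-κB genes had 3 of 21 called higher, Tlr7, Cd14 and Tnfrsf1b, a receptor of tumor necrosis factor, at 1.93. Adhesion genes had 2 called higher and 1 lower of 14. Itgb7 at 2.40 and Itga4 at 1.92 encode the chains of a gut-homing integrin, and Cd177, a neutrophil surface protein, was at -1.60. The list median of 0.31 became -0.06 as the mean of probe sets. Complement and Fc receptor genes had 0 called higher and 1 lower of 10, Cd55, which dampens complement, at -1.52.

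Markers of other cells were thinly covered at this floor. Lgals4, a galectin of gut epithelium, was the only epithelial marker at or above log2 5 in all pools, with means of 7.12, 7.32, 9.95 and 12.57 and a difference of 2.43 ± 0.23. All 31 tested epithelial markers were called higher for the difference, beside 16.8% of all genes tested. In the same order of pools, 2, 1, 24 and 31 of them had a mean at or above log2 5. They thus entered the test mainly through the tumor pools where they were high, and their count is no separate support. The T and NK list had Cd3d and Nkg7, a granule protein of killer cells, at 1.32. Siglecf, a receptor of eosinophils, was called higher at 1.85 ± 0.17 among 3 mast cell, basophil and eosinophil genes. Acta2, smooth muscle actin, was the only stromal gene and was called lower at -1.61, but was -0.57 as the mean of its probe sets. Tfrc, the transferrin receptor, was the only erythroid gene and was not called at -0.40. The part of these cell types in the differences was not tested.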

How the data were processed

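RNA of sorted mouse myeloid cells was measured on 8 single-colour arrays. The deposited values are log2 expression values of 45101 probe sets that the authors made with GCRMA (background correction, normalization and probe summary), per the submitters' processing notes. Their range of 0.749 to 15.341 fits a log2 scale. Array depth does not apply, and the number of arrays limits the precision. Arrays were grouped by title. Probe sets with 1 gene symbol (34958; 932 had several and 9211 none) were kept, and for each of 18194 genes the one with the highest mean. Genes reaching log2 5 on 2 or more arrays (8174) were fitted with limma 3.58.1 in R 4.3.3 (lmFit, eBayes, 4 groups, 4 residual and 2.14 prior degrees of freedom), with Benjamini-Hochberg adjustment over all of them. Errors of differences are moderated standard errors. In simulated data for this contrast (8174 genes), the fit found 93 of 100 changes of log2 1.5 and 99 of 100 of log2 2, and made 0 false calls. The simulated noise was the technical spread alone. The simulation therefore cannot tell how many calls arise from variation between mice or pools. Promoter windows are those of RefSeq (GRCm38.p6), the one listed first per gene. The build of the array is not stated in the labels.

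The genes, the 36 gene lists and the tests were chosen with earlier results of these data known. Genes were named as Hdc, the 15 largest and 15 smallest called differences, the 5 largest in each pattern of effects, the 6 same-direction genes with the smallest difference and up to 4 called genes per list. Predicted genes without a proper name were left out. Other list members given by value show a list's range and were chosen after their values were seen. Same-numbered arrays were not paired: their deviations from the group means correlated at -0.015 to 0.058 over 6 pairs of groups. Alternatives changed the filter, the normalization, the probe set, the variance model, the floor and the arrays used.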

Additional observations from a re-analysis of the deposited data

Results flagged for a closer look

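The genotype effects in marrow and in tumor differed, by the test of the difference itself, at 548 genes called higher and 689 called lower. Together these were 19.1% of the 6473 genes, beside 28.5% of all 8174 tested. Called effects of opposite direction are listed here, and that direction rests on the label of the HDC-null tumor pool. Hdc was not low in that pool, at 13.03 against 13.24 in wild-type tumor. With the direction of the tumor effect turned, these genes would count as the same direction. In the direction of a fall in HDC-null marrow and a rise in the labelled HDC-null tumor pool, the differences were 5.01 for Oasl2, 4.90 for Ifit3, 4.54 for Ifit1, 4.04 for Nlrc5, 3.71 for Ccnd2, 3.70 for Pdia3, 3.67 for Ifi47, 3.50 for Zbp1, 3.26 for both Usp18 and Adgre1, 2.85 for Igtp, 2.37 for Csf1 and 2.35 for Tap1. In the other direction they were -7.04 for Ugt8a, -6.60 for Cd3d, -4.54 for Tex15, -4.25 for Tesc, -3.98 for Dock9 and -3.73 for Plau.

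Genes under log2 5 in at least 1 pool stand outside the comparison. Of these 1701 genes, 825 were called higher and 268 lower for the difference of effects, together 64.3%. The share was 19.1% of the 6473 genes and 28.5% of all 8174 tested. The 1701 reached log2 5 on at least 2 arrays but lay under it in a pool. That choice favours large differences, so their share is not a result about them.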

How the results depend on the processing

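The calls of 548 higher and 689 lower genes stayed within 1.5 times under every alternative run for them except 1: as the mean of all probe sets of a gene, 338 genes were called higher and 502 lower over 5255 genes at the floor, and 303 of the 338 were also called higher with the brightest probe set. Fewer genes passed the floor under that alternative. Leaving out each array in turn gave 546 to 563 higher and 677 to 697 lower. The replicate block gave 548 and 689 and changed no count. A floor at log2 6 gave 375 and 573, and a floor at log2 4 gave 742 and 814. Median centring gave 462 and 811 and quantile normalization 535 and 692. Of 2215 values of the 124 named genes under the alternatives, 2173 kept their direction and side of the threshold, 42 kept the direction and missed the threshold, and 0 reversed. Signal near background limits genes close to log2 5 most, and 2 technical arrays per pool leave the spread between mice unmeasured.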
